A study of Mus musculus with 4 samples.

Results

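Rac, Cdc42 and their closest relatives, together with the PIX and GIT proteins that bring them to p21-activated kinases (PAKs), were measured in mouse mammary tumour cells labelled Pak1 -/- or Pak1 +/+. The set comprised 10 genes, namely Rac1, Rac2, Rac3, Cdc42, Rhoj, Rhou, Rhov, Git1, Arhgef6 and Arhgef7, and its members were the non-control probes that the scanner files assign to these gene names. They amounted to 13 probes of 39429 on the array, and to 10 genes of 31709 gene names. Rac1, Cdc42 and Arhgef7 had a pair of probes each, and the probe that was brightest over the 4 arrays stood for the gene.

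Total RNA was amplified and labelled, and the resulting cRNA was hybridised to single-colour Agilent mouse arrays with 60-base probes, 2 arrays per genotype. The groups are labelled Pak1 -/- and Pak1 +/+, and both hold breast cancer cells derived from MMTV-Neu mouse tumours, where a mouse mammary tumour virus promoter expresses Neu, the rodent form of Her2 (Erbb2), in mammary epithelium. All cells had been grown in low calcium medium with 5% horse serum, starved of serum for 3 h and given EGF for 15 min, so that no group was left without the growth factor. The series design names 2 different tumours per group, and the study's methods speak of cell lines derived from tumours. This makes each group a small number of lines. The lowest correlation across probes within a group was 0.997, and between groups it was 0.954 to 0.959. How independent the 2 samples of a group are was not tested. The age of the mice is not given in the sources used here.

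Rac and Cdc42 are small GTPases that switch between a GDP-bound resting form and a GTP-bound active form. Exchange factors load them with GTP, GTPase-activating proteins (GAPs) return them to the resting form, and guanine nucleotide dissociation inhibitors (GDIs) hold them in the cytosol. In the GTP-bound form they bind group I PAKs and release the kinase from autoinhibition, while the exchange factors alpha-PIX (Arhgef6) and beta-PIX (Arhgef7) bind PAK directly and couple it to the scaffold GIT1 at focal adhesions. In mammary epithelial cells this pathway is known for its control of actin, adhesion and migration. These activities depend on nucleotide state and localisation, and the arrays measured transcripts alone.

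The 4 arrays lay on 1 slide, with the libraries labelled Pak1 -/- at positions 1 and 2 and those labelled Pak1 +/+ at positions 3 and 4, so position and genotype cannot be told apart. Median spot intensity was between 322 and 331 and between 62.2% and 70.4% of probes met the scanner's mark of well above background. The only Pak1 probe kept did not read lower in the cells labelled Pak1 -/-. Its normalized log2 intensities were 12.21 and 12.25 in these cells and 12.04 and 12.04 in Pak1 +/+ cells, a difference of 0.19 (SE 0.07, limma adjusted p = 0.07), which passed as higher under cyclic loess alone (0.27, adjusted p = 0.027). Whether this probe lies in the deleted part of the gene is not given in the sources used here, so it does not check the labels, and every direction below rests on the labels alone. Luminal epithelial markers, among them Krt8, Krt18 and Epcam, were well above background on all arrays for 10 of 12 genes, with a summed intensity from 1065630 to 1199669, most of it from Krt8 and Krt18. Of the 12 tested, Krt8 (0.57), Krt18 (0.27), Cdh1 (1.19) and Gata3 (0.45) were higher and Elf3 (-0.32) was lower. Of 7 basal epithelial markers tested, 5 were higher and none lower, where 22.8% of all genes were higher. Their summed intensity was 92846 and 95808 in the cells labelled Pak1 -/- and 28525 and 26195 in Pak1 +/+ cells, and most of this difference lay in Krt17 and Krt14, higher by 4.92 and 2.83 on the log2 scale. Without them, the sums were 20589 and 21462 against 19258 and 17125. Acta2 (1.69), Krt5 (0.50) and Trp63 (0.43) were the other markers that were higher, Tagln (-0.20) and Cnn1 (0.04) did not pass the test, and Myh11 was under that mark on every array. The summed intensity of 10 fibroblast markers was 3540 and 2377 against 1866 and 1242, and without Postn, which was well above background in Pak1 -/- cells only, it was 1766 and 1558 against 1802 and 1180. The gap between the 2 Pak1 +/+ arrays in the last pair of sums lay mainly in Fap, whose intensity was 648 and 76.7 there and 282 and 280 on the Pak1 -/- arrays. Among 5 fibroblast markers tested, 2 were higher and none lower, beside 22.8% higher among all genes. Col1a1 was higher by 1.12 (limma adjusted p = 0.0051) and Postn by 3.98 (0.0018). Col1a2 (0.03), Pdgfra (-0.16) and Fap (0.24) did not pass the test. Col3a1, Dcn, Lum and Pdgfrb were under that mark on every array. The part of these marker differences in the results below was not tested, and in RNA from bulk cells fewer cells of a type and less RNA per cell cannot be told apart.

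Of the 10 genes, 5 were higher in the cells labelled Pak1 -/- (Rac3, Cdc42, Rhoj, Rhou and Arhgef6), 2 were lower (Rac1 and Arhgef7) and 3 did not pass the test (Rac2, Rhov and Git1), at a limma adjusted p under 0.05 over all probes. This count has to be read against a comparison in which 52.0% of the 27215 probes and 51.1% of the 21899 genes tested passed, with 22.8% of genes higher and 28.3% lower. The balance depended on the scaling: of the probes called, 44.9% were higher here and 52.4% under cyclic loess, where the median difference of all probes was 0.002 and not -0.052. The median log2 difference of the members was 0.39, beside -0.06 over all genes. At a change of at least 2-fold, 3 members passed, namely Arhgef6, Rac3 and Rhoj, where 12.7% of all genes did so. Among the members, 8 of 10 had no overlap between the arrays of one genotype and those of the other, which held for 77.6% of all genes. Arhgef6 changed by more than 98.6% of all genes tested and Rac3 by more than 93.6%, while Arhgef7 and Rac1 lay near the middle, above 52.3% and 48.1% of them.

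**Figure D1:**
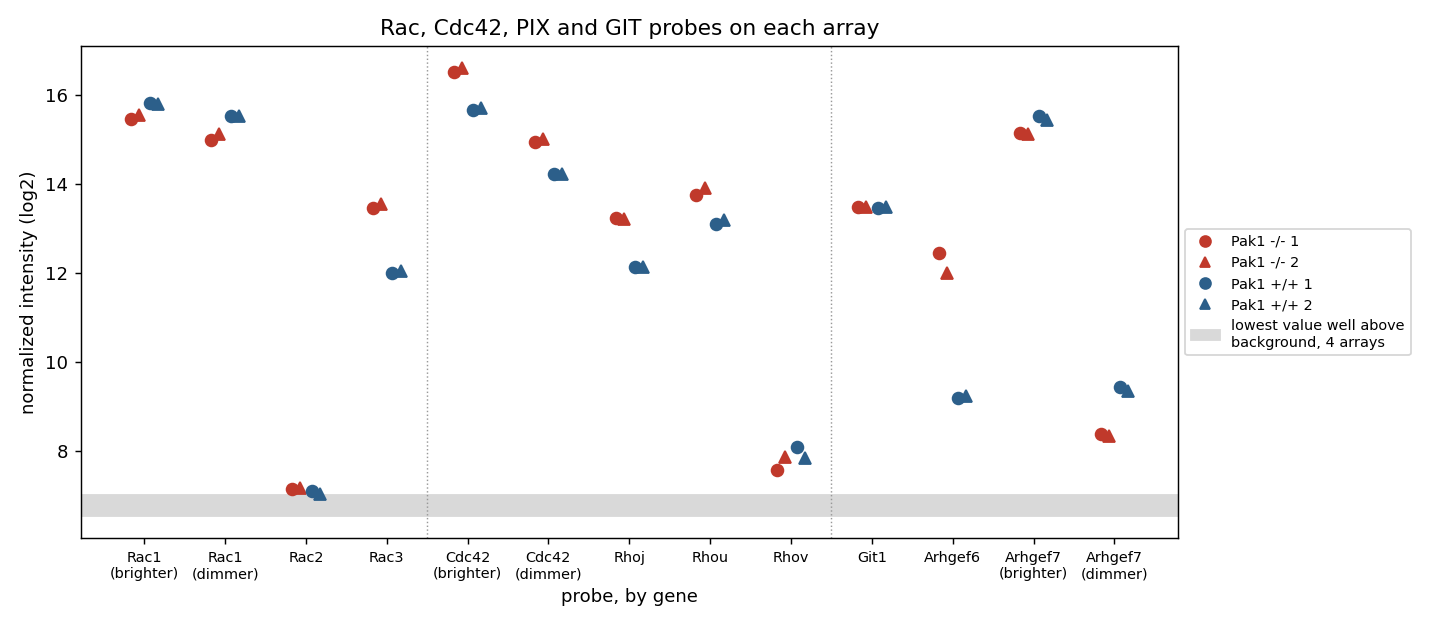
Normalized log2 intensity (vertical axis) of each of the 13 probes on each of the 4 arrays, with red symbols for Pak1 -/- and blue symbols for Pak1 +/+ cells, circles for replicate 1 and triangles for replicate 2. The 2 Pak1 -/- arrays lie above the 2 Pak1 +/+ arrays for Rac3, Cdc42, Rhoj, Rhou and Arhgef6 and below them for Rac1 and Arhgef7. Rac2 is also higher without overlap, by 0.09 and close to the grey band, which marks the lowest values that were well above background (6.55 to 7.03).

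The stretches upstream of 4 of the 5 genes that were higher are shown. These genes were chosen by that call alone, and whether they are regulated together was not tested. The table of RefSeq start sites used here was matched for 8 of the 10 members, with 12 entries in all, and the 250 bases before each start were searched on both strands for 5 motifs (GRCm38.p6). Both Arhgef6 entries lie within the annotated gene and are not printed. In the sequences, written 5′ to 3′ on the strand of the gene, capitals mark GC boxes (GGGCGG or its reverse complement) and the letters TATAAA. The windows are chr11:120721218-120721467 (+) for Rac3, chr4:137357760-137358009 (-) for Cdc42, chr12:75308063-75308312 (+) for Rhoj and chr8:123653679-123653928 (+) for Rhou.
Rac3: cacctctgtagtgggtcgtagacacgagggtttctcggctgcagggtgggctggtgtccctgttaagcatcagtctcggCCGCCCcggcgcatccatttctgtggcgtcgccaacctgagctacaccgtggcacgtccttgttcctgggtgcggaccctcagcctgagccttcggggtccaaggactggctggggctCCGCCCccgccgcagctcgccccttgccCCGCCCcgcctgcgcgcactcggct
Cdc42: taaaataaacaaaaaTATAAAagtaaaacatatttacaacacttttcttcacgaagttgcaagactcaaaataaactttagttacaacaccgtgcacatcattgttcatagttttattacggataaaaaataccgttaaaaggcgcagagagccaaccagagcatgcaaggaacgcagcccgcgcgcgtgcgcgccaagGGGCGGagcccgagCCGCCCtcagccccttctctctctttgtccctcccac
Rhoj: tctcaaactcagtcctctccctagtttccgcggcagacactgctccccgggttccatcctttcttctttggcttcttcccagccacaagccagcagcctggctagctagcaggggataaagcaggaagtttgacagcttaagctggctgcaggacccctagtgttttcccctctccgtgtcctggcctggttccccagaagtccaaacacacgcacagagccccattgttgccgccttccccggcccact
Rhou: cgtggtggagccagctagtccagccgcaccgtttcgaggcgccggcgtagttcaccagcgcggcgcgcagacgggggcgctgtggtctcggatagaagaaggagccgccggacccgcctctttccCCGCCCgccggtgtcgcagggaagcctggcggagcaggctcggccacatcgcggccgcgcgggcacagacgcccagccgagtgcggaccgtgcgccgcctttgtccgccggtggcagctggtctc
Rac3 had 3 GC boxes, Cdc42 had 2, Rhou had 1 and Rhoj had none. The Cdc42 window also held TATAAA. These letters lay near the 5′ end of the window, far from the start, and are given as a match only. A GC box was found in 8 of the 12 member windows and in 32.7% of the 32851 windows of all genes. The member windows are not independent, as Arhgef6, Arhgef7 and Git1 have more than 1 each and those of Git1 overlap. The windows of Rhov and Arhgef7 and the downstream one of Git1 also overlap their annotated gene. CCAAT was found in 2 windows (33.8% of all), TATAAA in that of Cdc42 alone (12.4%), and the cyclic AMP response element TGACGTCA in 1 of Arhgef7 (1.55%). The AP-1 letters TGANTCA (6.75%) were in none. The 4 printed windows thus had no motif of this search in common. These matches describe the letters of the windows only.

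Among the Rac GTPases, Rac3 was higher in the cells labelled Pak1 -/- and Rac1 lower. Rac1, the ubiquitous member of the family and a main activator of PAK1, was read by a probe at chr5:144266757-144266816 (mm9, minus strand) with normalized log2 intensities of 15.45 and 15.54 in Pak1 -/- cells and 15.82 and 15.78 in Pak1 +/+ cells. Both Pak1 -/- arrays were below both Pak1 +/+ arrays. The means were 15.50 ± 0.065 and 15.80 ± 0.028 (SD, n = 2 each), a difference of -0.30 on the log2 scale (1.24-fold, SE 0.07, limma adjusted p = 0.025). The call was lost under cyclic loess normalization (adjusted p = 0.083), with a replicate block (0.051), and without Pak1 -/- replicate 1 (0.078), Pak1 +/+ replicate 1 (0.12) or Pak1 +/+ replicate 2 (0.091). The second Rac1 probe, whose start lies 965 bases away, read 14.99 and 15.11 against 15.53 and 15.53, again with no overlap. Its difference of -0.48 (1.40-fold, SE 0.08, limma adjusted p = 0.007) passed under every alternative tried. The changes of the 2 Rac1 probes differed by 0.18 on the log2 scale, which did not pass the test of that difference (diffSplice adjusted p = 0.3).

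Rac3, the isoform best known from brain and also studied in breast cancer cells, was read at chr11:120585073-120585132 (mm9, plus strand). The normalized log2 intensities were 13.45 and 13.55 in Pak1 -/- cells and 12.01 and 12.05 in Pak1 +/+ cells. The groups were far apart relative to the spread within them, at 13.50 ± 0.072 and 12.03 ± 0.025 (SD, n = 2 each). The level was 2.78-fold higher (log2 difference 1.47, SE 0.08, limma adjusted p = 0.00033), and the difference stayed between 1.42 and 1.55 over the alternatives.

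Rac2, the form restricted largely to blood cells, was read by a probe printed 10 times on the array at chr15:78391452-78391511 (mm9, minus strand). Its log2 intensities of 7.16 and 7.18 in Pak1 -/- cells and 7.11 and 7.05 in Pak1 +/+ cells lay just above the lowest values that counted as well above background, which were 6.55, 6.69, 6.70 and 7.03 in the same order, and it was not well above background on the array of Pak1 +/+ replicate 2. Both Pak1 -/- values exceeded both Pak1 +/+ values, by little. The difference of 0.09 did not pass the test (95% interval -0.09 to 0.27, limma adjusted p = 0.32). Among 15 leukocyte markers, whose summed intensity was 87777 and 70520 in Pak1 -/- cells and 58706 and 51179 in Pak1 +/+ cells, 11 were tested. Lcp1 (1.41) and Aif1 (0.80) were higher, Adgre1 (-1.05), Coro1a (-0.93), Ptprc (-0.45) and Fcer1g (-0.37) were lower, and Laptm5, Tyrobp and Cd53 stayed under that mark on every array. The sum was carried by Itgam, which did not pass the test (0.49, limma adjusted p = 0.11), and Lcp1, and without both it was 8838 and 8533 against 7722 and 8140.

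In the Cdc42 branch, Cdc42, Rhoj and Rhou were higher in the cells labelled Pak1 -/- and Rhov did not pass the test. Cdc42, which controls polarity and filopodia and activates PAKs, was read by a probe at chr4:136875813-136875872 (mm9, minus strand) with log2 intensities of 16.50 and 16.59 in Pak1 -/- cells and 15.66 and 15.71 in Pak1 +/+ cells. Both Pak1 -/- arrays exceeded both Pak1 +/+ arrays, and the level was 1.82-fold higher (log2 difference 0.86, SE 0.07, limma adjusted p = 0.0013). The other Cdc42 probe, at chr4:136884962-136885021 (mm9), is shown because it lies upstream of the first, their starts 9149 bases apart in the genome. That it lies in sequence encoding the protein was taken from general knowledge of Cdc42 and not from an annotation.
Cdc42 probe: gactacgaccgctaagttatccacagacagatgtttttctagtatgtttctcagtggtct
This probe read 14.94 and 15.01 in Pak1 -/- cells and 14.21 and 14.22 in Pak1 +/+ cells, without overlap. Its change was 1.70-fold (log2 difference 0.76, SE 0.07, limma adjusted p = 0.0015). The changes of the probes differed by 0.10 on the log2 scale (diffSplice adjusted p = 0.56), and both were called under every alternative tried.

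Rhoj (TCL), a Cdc42 relative known for its role in endothelial cells, was read at chr12:76501927-76501986 (mm9, plus strand). Its log2 intensities were 13.23 and 13.20 in Pak1 -/- cells and 12.13 and 12.13 in Pak1 +/+ cells, so that replicates of a group nearly coincided and the groups did not overlap. The level was 2.12-fold higher (log2 difference 1.08, SE 0.07, limma adjusted p = 0.00054). The summed intensity of 12 endothelial markers was 11236 and 11829 against 11254 and 12480. Most of it came from Kdr (8951 and 9270 against 8386 and 9695), so the sums say little of the other markers. Of 7 tested, Egfl7 was lower (-0.63) and Robo4 higher (0.43), beside 28.3% lower and 22.8% higher among all genes. Robo4 was well above background in Pak1 -/- cells only. Tek, Tie1, Emcn, Cldn5 and Erg stayed under that mark on every array.

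Rhou (Wrch1) and Rhov (Chp, Wrch2) are atypical GTPases that bind PAK. Rhou, read at chr8:126187714-126187773 (mm9, plus strand), had log2 intensities of 13.75 and 13.91 in Pak1 -/- cells and 13.09 and 13.19 in Pak1 +/+ cells. The arrays of the groups were again separate, and the level was 1.62-fold higher (log2 difference 0.69, SE 0.09, limma adjusted p = 0.0038). Rhov, read at chr2:119095740-119095799 (mm9, minus strand), was dim, with 7.59 and 7.88 in Pak1 -/- cells and 8.09 and 7.86 in Pak1 +/+ cells. Here the groups overlapped and the difference of -0.24 did not pass the test (95% interval -0.60 to 0.12, limma adjusted p = 0.21).

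The exchange factors that bind PAK moved in opposite directions. Arhgef6 (alpha-PIX), at chrX:54484729-54484788 (mm9, minus strand), had log2 intensities of 12.44 and 12.01 in Pak1 -/- cells and 9.19 and 9.25 in Pak1 +/+ cells. The Pak1 -/- replicates differed more from each other than those of any other member, at 12.23 ± 0.30 against 9.22 ± 0.044 (SD, n = 2 each), and still lay far above the Pak1 +/+ cells. The level was 8.03-fold higher (log2 difference 3.01, 95% interval 2.59 to 3.42, SE 0.16, limma adjusted p = 0.00035), with a range from 2.79 to 3.22 over the alternatives. Of all genes tested, Susd4, Cdh2 (N-cadherin) and F830223B06Rik had the most similar profile to Arhgef6 over the 4 arrays, with root mean square differences of 0.051, 0.052 and 0.059 between log2 values centred on each gene's mean. For Cdh2 the log2 intensities were 14.58 and 14.28 in Pak1 -/- cells and 11.34 and 11.43 in Pak1 +/+ cells. With 4 arrays in 2 groups, such a likeness says little beyond the size of the genotype difference and the order of the Pak1 -/- replicates.

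Arhgef7 (beta-PIX) was read by 2 probes that the files assign to different RefSeq transcripts of the gene. The brighter one, at chr8:11835154-11835213 (mm9, plus strand), read 15.13 and 15.11 in Pak1 -/- cells and 15.51 and 15.42 in Pak1 +/+ cells. It was lower on both Pak1 -/- arrays, by a log2 difference of -0.35 (1.27-fold, SE 0.07, limma adjusted p = 0.016). This call was lost under cyclic loess (adjusted p = 0.072) and without Pak1 -/- replicate 1 (0.055), Pak1 -/- replicate 2 (0.057) or Pak1 +/+ replicate 1 (0.095).

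The dimmer Arhgef7 probe, at chr8:11827008-11827067 (mm9), read 8.38 and 8.35 in Pak1 -/- cells and 9.44 and 9.36 in Pak1 +/+ cells. The groups were separate, and the level was 2.05-fold lower in Pak1 -/- cells (log2 difference -1.04, SE 0.07, limma adjusted p = 0.00073), under every alternative tried. The change of the dimmer probe exceeded that of the brighter one by 0.69 on the log2 scale (diffSplice adjusted p = 0.0037). Such a difference between probes was called for 18.0% of the 4416 genes with several probes, and for Arhgef7 it was lost without Pak1 +/+ replicate 1 (adjusted p = 0.05, at the threshold) or Pak1 +/+ replicate 2 (0.053). The test treats probes on 1 array as independent of each other.

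Git1, the scaffold that holds PIX and PAK together, was read at chr11:77321217-77321276 (mm9, plus strand) with log2 intensities of 13.47 and 13.47 in Pak1 -/- cells and 13.46 and 13.49 in Pak1 +/+ cells. The values overlapped, and the difference of -0.01 had a 95% interval from -0.18 to 0.17 (limma adjusted p = 0.95). Only 1.05% of all genes tested changed by less. Its sign turned under cyclic loess (0.086) and without Pak1 +/+ replicate 2 (0.01). Git2, its paralogue, was higher by 0.44 (limma adjusted p = 0.021), a call that was lost without Pak1 +/+ replicate 1 (0.067) or replicate 2 (0.08).

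**Figure D2:**
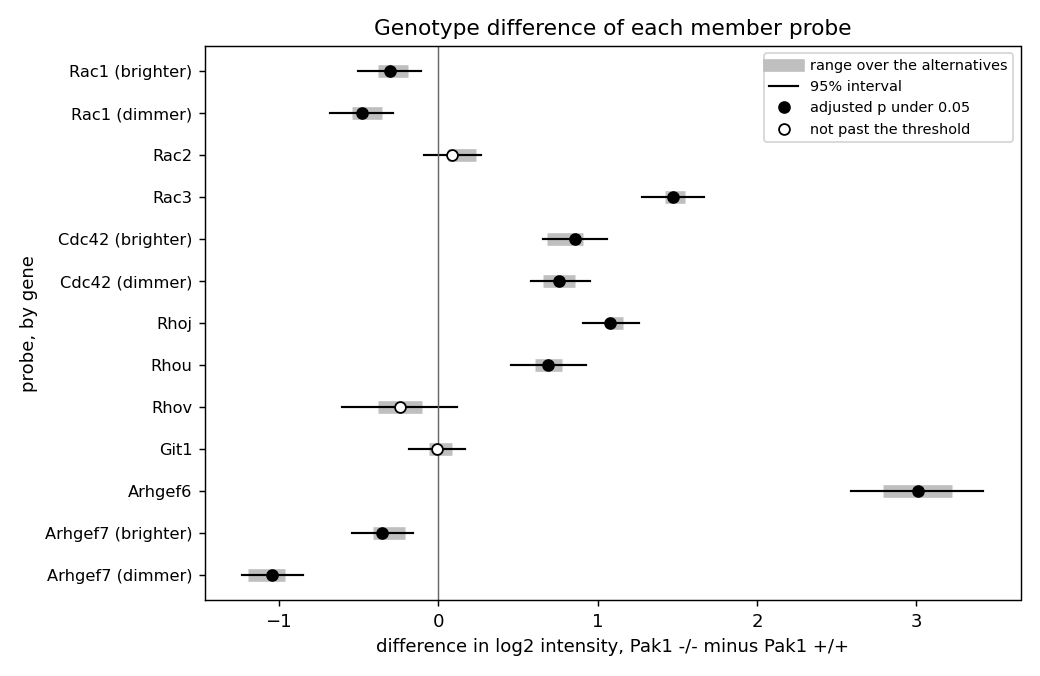
Log2 difference in intensity between Pak1 -/- and Pak1 +/+ cells (horizontal axis) for each of the 13 probes, with filled points for limma adjusted p under 0.05, black lines for 95% intervals and grey bars for the range over the alternative settings. Arhgef6 stands apart at 3.01, followed by Rac3 at 1.47 and Rhoj at 1.08, and the dimmer Arhgef7 probe lies lowest at -1.04.

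Of the 5 other PAK kinases, the effectors downstream of these members, 2 were higher and none lower, beside 22.8% higher among all genes. Pak6 was higher in the cells labelled Pak1 -/- by 0.91 on the log2 scale (limma adjusted p = 0.0012) and Pak3 by 0.42 (0.0089, lost without Pak1 +/+ replicate 1 at 0.057), and Pak2, Pak4 and Pak7 differed by 0.02, -0.17 and -0.02 without passing the test. Pak4 passed as lower with normexp values scaled to the 75th percentile (-0.32, 0.025).

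Regulators of Rac and Cdc42 moved in both directions, beside a background of 22.8% higher and 28.3% lower. Of 46 listed exchange factors, 40 were tested, of which 12 were higher, 9 were lower and 19 did not pass, with a median log2 difference of 0.03. One of the genes higher, Plekhg1, was well above background in Pak1 -/- cells only, and the count was 11 when all 4 arrays had to be. The largest increases were of Fgd3, a Cdc42 exchange factor (3.46, limma adjusted p = 0.00036), Def6 (2.03, 0.00013) and Arhgef4, also known as Asef (1.82, 0.00027), and all 3 Fgd3 probes were higher, by 2.09 to 3.46. The largest decreases were of Mcf2l (Dbs; -1.70, 0.00049), the Rac exchange factor Tiam2 (-1.44, 0.00038) and Plekhg4 (-1.42, 0.00036).

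Among 23 listed GAPs and GDIs, 21 were tested, with 5 higher, 7 lower and 9 not past the threshold, and a median of -0.05. Arhgap25 was among those higher though well above background in Pak1 -/- cells only, and Srgap1 though well above it on 1 of 2 Pak1 +/+ arrays. The count was 4 when all 4 arrays had to be well above background. Both of these probes are then left out, so that another probe of the list was called there. The GDI Arhgdib, known mainly from blood cells, fell by 3.80 on the log2 scale (log2 intensities 11.17 and 11.24 in Pak1 -/- cells, 15.04 and 14.97 in Pak1 +/+ cells, limma adjusted p = 5.2e-05). Its other probe fell by 1.84 (0.00019). Of the 11 leukocyte markers tested above, 4 were lower (36.4%, beside 28.3% of all genes) and 2 higher (18.2%, beside 22.8%). The part of such cells in the Arhgdib difference was not tested. The ubiquitous GDI Arhgdia differed by -0.16 (0.1) at its brightest probe and by -0.32 (0.02) at another, and the brightest probe passed when arrays were scaled to the 75th percentile, with processed intensities (-0.42, 0.021) or normexp values (-0.41, 0.012). The Rac GAPs Arhgap22 (2.00, 0.00052) and Chn2 (beta-chimaerin; -1.0, 0.0079) changed in opposite directions, and Arhgap33 was lower by a log2 difference of -0.95 (0.0019). Arhgap17 (0.42, 0.04) and Srgap2 (0.23, 0.044) were called narrowly. The call of Arhgap17 was lost under 6 of 12 alternatives, among them leaving out Pak1 -/- replicate 1 (0.088), Pak1 +/+ replicate 1 (0.086) or Pak1 +/+ replicate 2 (0.14), and its second probe differed by 0.09 (0.44). The call of Srgap2 was lost under 8 of 12, among them the replicate block (0.089) and leaving out any 1 array (0.087 to 0.19), and its second probe was called lower, at -0.27 (0.043), so that the probes of this gene disagree. Srgap1, chosen here after its value was seen, was higher by 2.37 with its probe well above background on 1 of 2 Pak1 +/+ arrays.

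Adaptors of PIX, GIT and PAK numbered 14, of which 12 were tested. In this list 6 were higher (50%, beside 22.8% of all genes) and 2 lower (16.7%, beside 28.3%), with a median of 0.26, and the number that were higher fell to 2 without Pak1 +/+ replicate 1. Cblb, a ubiquitin ligase (0.83, limma adjusted p = 0.001, with a second probe at 0.17), and Nck1, the adaptor that links PAK to receptors (0.59, 0.0035), were higher, and the GTPase Arf6, a substrate of GIT GAP activity, was lower (-0.70, 0.0017). Tgfb1i1 (Hic-5), a paxillin relative that binds GIT1 and that was chosen here after its value was seen, was lower by a fitted log2 difference of -3.87 (4.6e-05), with log2 intensities of 6.80 and 6.82 in Pak1 -/- cells and 10.71 and 10.64 in Pak1 +/+ cells. It was well above background on 1 of 2 Pak1 -/- arrays.

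Other effectors of Rac and Cdc42 included 7 that were higher and 10 that were lower among 29 tested of 32, with a median of -0.05. These shares of 24.1% and 34.5% lay near the 22.8% and 28.3% of all genes. The polarity protein Pard6g rose by 3.18 on the log2 scale (limma adjusted p = 0.00016), and the next largest increases were of Wasf2 (WAVE2; 1.07, 0.00088) and the Abl interactor Abi1 (0.75, 0.0019). The largest decreases were of Cdc42ep5, a Borg protein that binds Cdc42 (-1.49, 0.00025), Wasf1 (WAVE1; -1.24, 0.00065) and Abi2 (-0.79, 0.0017). The number that were lower was 5 without Pak1 +/+ replicate 2.

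**Figure D3:**
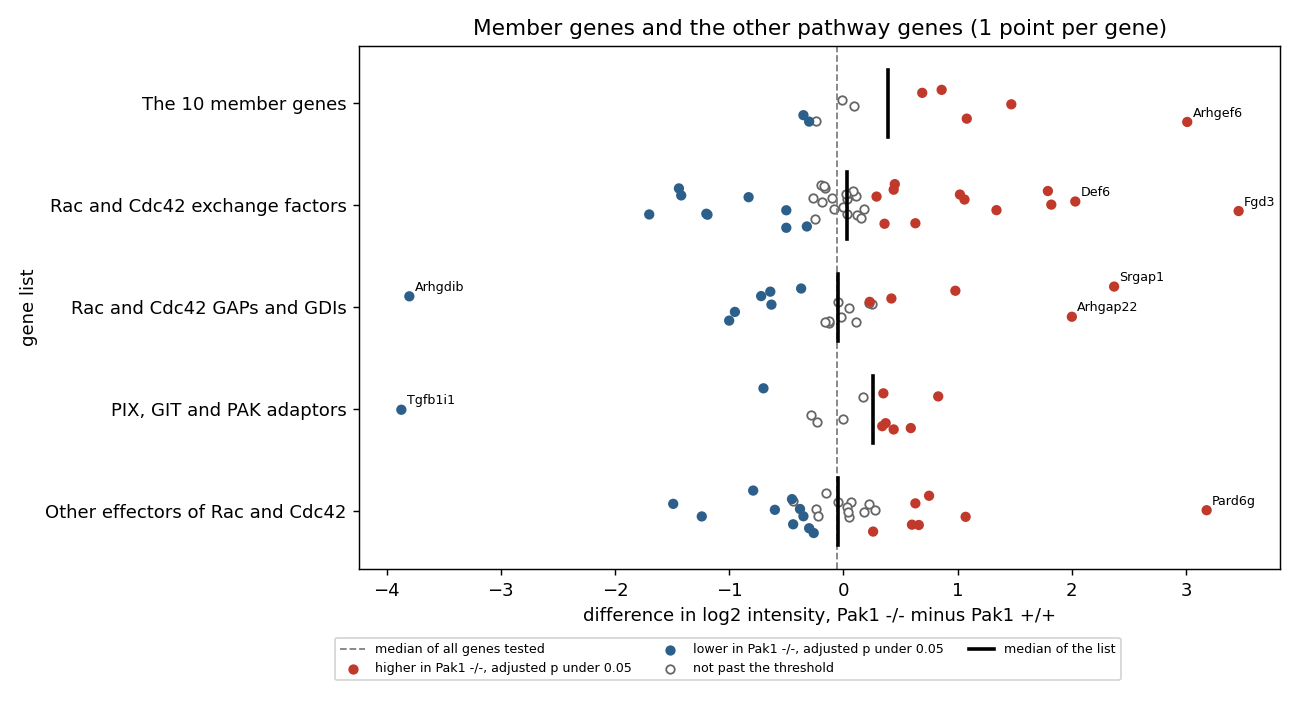
Log2 difference in intensity between Pak1 -/- and Pak1 +/+ cells (horizontal axis) for the 10 member genes and for 4 lists of other pathway genes (rows, 1 point per gene), with red and blue points for genes called higher and lower, open points for genes not past the threshold and black bars for list medians. The member median lies at 0.39 and the medians of the lists between -0.05 and 0.26, with the median of all genes at -0.06 (dashed line).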

How the data were processed

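Spot intensities on a linear scale, deposited as scanner output and not normalized between arrays, had been extracted with Feature Extraction 9.5.3.1 per the file headers. A second table from the authors, in log2 units and by their methods normexp corrected and quantile normalized, had values in 24008 of 39485 rows and was used as an alternative. Its lowest correlation with the values computed here was 0.9999 across probes, which are not independent. Here background was corrected by normexp (offset 50, set here) in limma 3.58.1 with R 4.3.3, control spots were left out, intensities were log2 transformed and quantile normalized, outlier spots were set aside and spots of a probe were averaged. The offset understates changes of dim probes. The 27215 probes that 2 or more of the 4 arrays flagged as well above background were compared with limma (lmFit, eBayes, two-sided, genotype as the only term), with Benjamini-Hochberg adjustment over all of them and a threshold of 0.05. An exact permutation test of 2 against 2 arrays cannot give a p below 0.333. Differences between probes of a gene were tested with diffSplice, an analysis added after the data were seen. Member probes were found by the gene name in the files. For the comparison with all genes, 26049 probes were named by their accession in RefSeq (GRCm38.p6). A further 12450 kept the name in the files and 930 were given the current form of an older name. Probe coordinates are those of the files (mm9).

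The members and lists were chosen with earlier results of these data known. Named genes were all member probes, the PAKs, Git2, Arhgdia and Arhgdib, and, per list, up to 3 genes with the largest change in each direction that passed the threshold and were well above background on all arrays, with cell type markers named beside the results they bear on. Plekhg1, Arhgap25, Srgap1 and Tgfb1i1, and the markers left out of sums, were chosen after their values were seen. A further list of genes is not reported here. The alternatives were an offset of 0, the scanner's processed intensity or normexp values scaled to the 75th percentile, cyclic loess, 2 other filters, the authors' table, a replicate block, leaving out each array, and averaging the probes of each gene. Nothing in the labels says that replicates of equal number share a source, and p-values measure the spread between these samples only.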

Additional observations from a re-analysis of the deposited data

How the results depend on the processing

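The number of members higher in Pak1 -/- cells was 5 under every alternative, 5 to 5 with an array left out. The 2 lower members became 0 under cyclic loess and 0 to 1 with an array left out. Over all probes, 14144 were called, 11831 to 13984 under the other settings and 10312 to 12168 with an array left out. Of those called, 44.9% were higher, and 52.4% under cyclic loess. The differences between replicates 1 and 2 in the 2 genotypes had a correlation of -0.028 across probes. This value cannot show whether samples of equal number share a source. With the replicate block 13202 probes and 1 lower member were called. Of the GAPs and GDIs, 5 were higher, and 3 with an offset of 0, with processed intensities, without the filter or with the mean over probes, and 3 to 4 with an array left out. Of the adaptors, 6 were higher (2 to 4 with an array left out) and 2 lower (1 when all 4 arrays had to be well above background). Lower effectors numbered 10 (5 to 10 with an array left out).

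The sign turned for Git1 (0.086 under cyclic loess, -0.021 to 0.01 with an array left out, and 0.01 without Pak1 +/+ replicate 2), for Pak2 (-0.041 with processed intensities, -0.027 with normexp at the 75th percentile, -0.085 without Pak1 +/+ replicate 2, against up to 0.12 with another array left out), for Pak7 (0.0037 with processed intensities, 0.024 under cyclic loess, 0.0066 without Pak1 -/- replicate 2, 0.013 without Pak1 +/+ replicate 2, against as low as -0.06 with another array left out) and for the difference between the Cdc42 probes (0.0036 with normexp at the 75th percentile). None of these passed the test in either direction, and the cause was not tested. With all 4 arrays required to be well above background, 11 exchange factors and 4 GAPs and GDIs were higher. Scaling to the 75th percentile made calls of Arhgdia (-0.42 and -0.41) and Pak4 (-0.32), and cyclic loess of Pak1 (0.27). Rac2 was not well above background on 1 array, and precision is set by 2 arrays per group.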
